A study of Mus musculus with 10 samples.

Results

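The natriuretic peptide system of the heart was followed through 8 genes in tissue from around the pulmonary veins of the mouse left atrium, after induced deletion of the T-box transcription factor gene Tbx5. The genes were the peptide precursors Nppa, Nppb and Nppc, the enzymes Corin and Pam, and the receptors Npr1, Npr2 and Npr3. They were picked by name from the 54532 genes of the count table for what their products do, with earlier results of these libraries known, and each name matched an Ensembl gene. There were 6 conditional knockout mice (CKO, R26creERT2/creERT2; Tbx5 flox/flox) and 4 controls (Ctrl, R26creERT2/creERT2; Tbx5+/+), with 1 RNA library per animal. Animals of both groups carried 2 copies of a tamoxifen-activated Cre recombinase at Rosa26, a locus active in most cell types, so that deletion was not limited to heart muscle, and animals of both groups were given tamoxifen. The injections, into the peritoneum, took place on 3 days at 6 weeks of age, and tissue was taken 1 week later, at 7 weeks. The left atrial appendage had been cut away, and 1 to 2 mm of vein was left on the tissue.

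As background, atrial muscle cells store atrial natriuretic peptide (ANP, from Nppa) in secretory granules and release it, with brain natriuretic peptide (BNP, from Nppb), when the wall is stretched. Both lower blood pressure and salt retention through the guanylyl cyclase receptor encoded by Npr1, which makes cyclic GMP, while C-type natriuretic peptide (CNP, from Nppc) acts on the related receptor of Npr2, and the receptor of Npr3 removes the peptides from the circulation. Corin is the membrane protease that cuts the ANP precursor, and Pam, best known as the enzyme that amidates peptide hormones, is an abundant membrane protein of atrial granules. Nppa and Nppb are neighbours on the same chromosome, and in mouse Nppa is a textbook target gene of Tbx5 acting with Nkx2-5 and Gata4.

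The natriuretic peptides share a ring closed by a bond between 2 cysteines, the part that binds the receptors. Its coding sequence is shown for Nppb, which was higher in CKO, and for Nppc, which was barely detected, because the 2 are alike there and yet different enough for reads to be told apart. Each runs 5′ to 3′ on the coding strand for 51 bases (17 codons) of exon 2 of 3, from the GENCODE M21 transcripts on GRCm38, with bases that are identical in both in capitals.
Nppb: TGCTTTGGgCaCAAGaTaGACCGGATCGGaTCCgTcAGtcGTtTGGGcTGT
Nppc: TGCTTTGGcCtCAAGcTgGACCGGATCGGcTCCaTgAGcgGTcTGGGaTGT
The stretches lie at chr4:147986464-147986514 (plus strand) for Nppb and chr1:86669667-86669717 (minus strand) for Nppc. They shared 40 of 51 bases and 13 of 17 encoded residues.

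Summed counts per library were between 8602794 and 10040808. Levels are given as CPM (counts relative to the TMM-scaled library size) for comparisons of 1 gene between libraries, and as TPM, which is corrected for transcript length, wherever different genes are compared. CKO was tested against Ctrl with edgeR's quasi-likelihood test, adjusted by Benjamini-Hochberg over the 17752 genes that passed the filter on low counts, and a gene at an adjusted p under 0.05 is said to be called. The genotype was checked on Tbx5 itself. Coverage of its exon 3, which general knowledge of this floxed allele places between the loxP sites, was 0.175 to 0.618 times that of the median of 9 exons in CKO and 0.903 to 1.70 times in Ctrl. Total Tbx5 RNA was 268 ± 105 CPM in CKO and 134 ± 31.6 CPM in Ctrl, higher in every CKO library than in any Ctrl library. It missed the threshold in edgeR's quasi-likelihood test (adjusted p = 0.101) and passed by DESeq2 (adjusted p = 0.00863), with Xist as a covariate (adjusted p = 0.0129) and in the authors' deposited table (false discovery rate 0.0117). Heart muscle markers (Tnnt2, Actc1, Myh6, Ttn, Tnni3, Actn2) summed to 68134 to 125979 CPM in CKO and 65058 to 105452 CPM in Ctrl, lowest in CKO 5 and Ctrl 3, and were thus abundant in every library. Airway markers were high in 2 libraries, CKO 4 at 2021 CPM and Ctrl 3 at 1230 CPM, against at most 68.0 CPM in the other libraries. Xist was at 1004 to 1371 CPM in CKO 1, 2 and 3 and Ctrl 1 and 2, and at 1.44 to 6.44 CPM in the remaining 5 libraries.

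The question put to the data was how the RNA of this peptide system differed after Tbx5 deletion. Nppb was higher in CKO and Pam was lower, and both passed the threshold. Nppa was lower in every CKO library than in every Ctrl library and missed the threshold. Corin and the 3 receptors did not pass, and Nppc was too low to test. Of the 8 genes 7 passed the filter on low counts, and of these 1 was called higher and 1 lower, where 2.8% of all tested genes were called (1.54% higher and 1.26% lower). In 3 of the 7 the CPM of CKO and Ctrl did not overlap, which 5.72% of all tested genes showed (2.7% with CKO lower, as for Nppa and Pam). The fold change was negative in 6 of the 7, with a median of -0.26 on the log2 scale, beside -0.03 over all tested genes, of which 46.6% were positive. In bulk tissue, fewer cells of a type and less RNA per cell cannot be told apart.

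**Figure D1:**
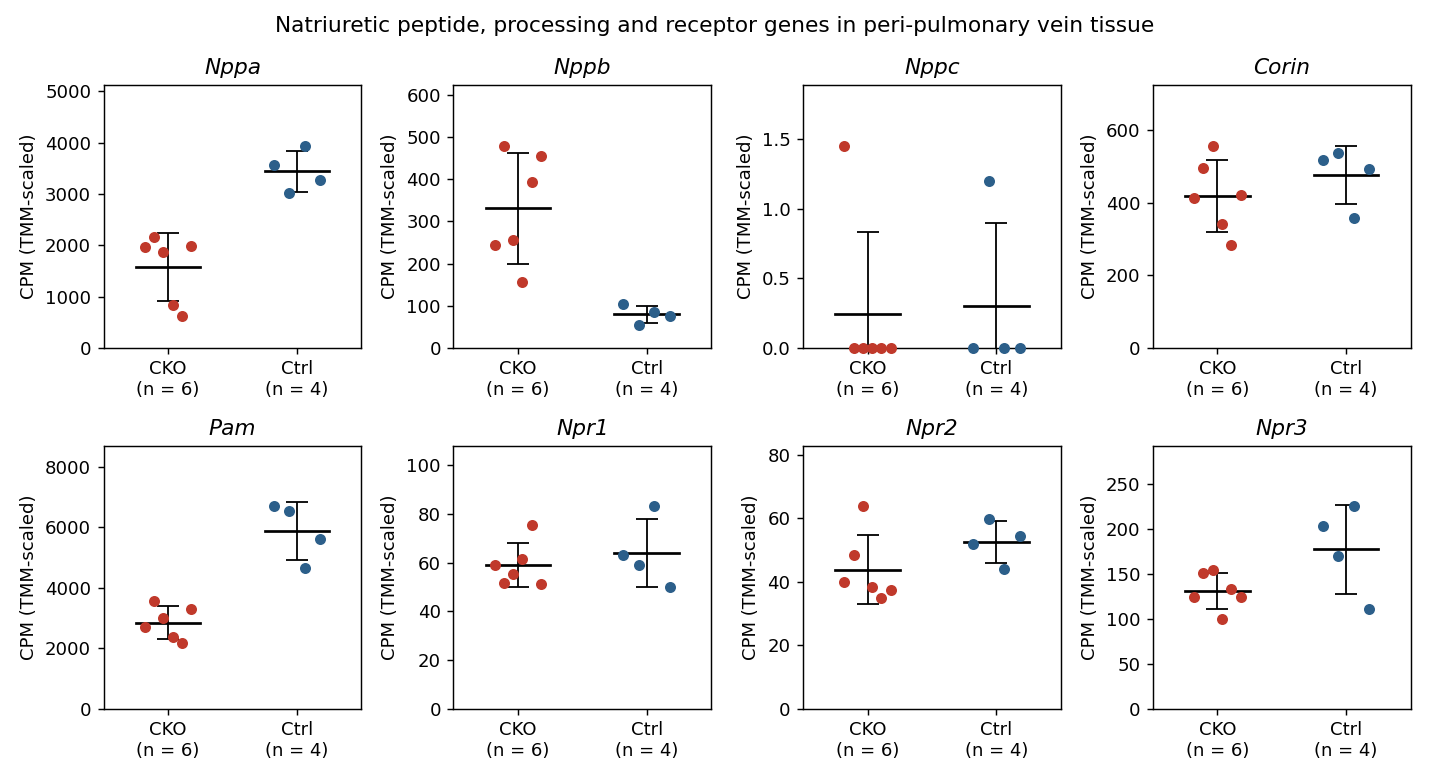
CPM (TMM-scaled, linear axes from 0) of the 8 genes in 6 CKO and 4 Ctrl libraries, 1 point per library, with the group mean (wide bar) and SD (whiskers). Nppa and Pam lie lower and Nppb higher in every CKO library than in any Ctrl library, and the other 5 genes overlap between the groups.

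Nppb encodes the precursor of BNP (ENSMUSG00000029019, chr4:147985788-147987205, plus strand). Its levels were 243, 480.1, 257, 156, 395 and 455 CPM in CKO 1 to 6, against 104, 53.9, 85.2 and 75.5 CPM in Ctrl 1 to 4. The lowest CKO library, CKO 4, was thus above the highest Ctrl library, Ctrl 1. Nppb averaged 331 ± 131 CPM in CKO and 79.5 ± 20.7 CPM in Ctrl (SD, n = 6 and 4), a log2 fold change of 2.06 with an SE of 0.33 (edgeR's quasi-likelihood test, adjusted p = 0.00799). The rise was seen in each of its 3 exons. Coverage of exon 1, 2 and 3 averaged 77.2, 391 and 167 reads per base in CKO, against 17.6, 94.8 and 40.3 reads per base in Ctrl, and no exon overlapped between the groups. Leaving out any 1 library left the log2 fold change between 1.92 and 2.21 and the adjusted p at 0.0370 or below.

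Nppa encodes the precursor of ANP (ENSMUSG00000041616, chr4:148000722-148002079, plus strand), and its start lies 13516 bases downstream of the end of Nppb. Its levels were 1958, 2152, 1876, 835, 614 and 1994 CPM in CKO 1 to 6, against 3559, 3014, 3943 and 3266 CPM in Ctrl 1 to 4. The 6 CKO libraries were below the 4 Ctrl libraries without overlap, and CKO 4 and CKO 5 lay far below the other 4 CKO libraries, which were close together. Nppa averaged 1572 ± 666 CPM in CKO and 3445 ± 399 CPM in Ctrl, a log2 fold change of -1.13 with an SE of 0.32. This missed the threshold in edgeR's quasi-likelihood test (adjusted p = 0.0984, unadjusted p = 0.0047). By DESeq2 it passed (log2 fold change -1.11, adjusted p = 0.0133), and over 20 alternatives the adjusted p ran from 0.0133 to 0.214, past the threshold in 1. Among the 3 CKO and 2 Ctrl libraries with high Xist, Nppa averaged 1995 CPM in CKO and 3287 CPM in Ctrl (log2 ratio of means -0.72), and among those with low Xist 1148 CPM in CKO and 3604 CPM in Ctrl (-1.65). CKO 5 and CKO 4 also had the lowest heart muscle marker sums of the CKO libraries, 68134 and 84333 CPM, but Ctrl 3, with the lowest sum of all at 65058 CPM, had the highest Nppa. The part of these differences in the Nppa result was not tested.

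Reads at Nppa are shared with an antisense gene model. Gm13054 (ENSMUSG00000086806, chr4:148001091-148004014, minus strand) overlaps Nppa on the opposite strand and was counted at 1716 ± 732 CPM in CKO and 3701 ± 323 CPM in Ctrl (log2 fold change -1.11, adjusted p = 0.103 in edgeR's quasi-likelihood test). Its count was 1.05 to 1.17 times that of Nppa in CKO libraries and 1.01 to 1.15 times in Ctrl libraries. In genome order, the first exon of Gm13054 shares 294 of its 304 bases with Nppa exons and had a coverage of 1495 reads per base in CKO and 3251 in Ctrl. Its second exon shares 238 of 370 bases and had 900.0 reads per base in CKO and 1914 in Ctrl. The last, which shares 0 of 146 bases with Nppa exons, had 1.36 reads per base in CKO and 1.47 in Ctrl. Coverage of Gm13054 was thus high in the exons that overlap Nppa exons and close to 1 read per base in the exon that does not. Exons 1, 2 and 3 of Nppa had 1125, 801 and 648 reads per base in CKO, against 2440, 1754 and 1430 in Ctrl. Reads from a gene and its antisense partner cannot be told apart in libraries that do not keep strand, and the library kit named in the labels is not known to keep it, although the file headers give StringTie a strand option. With the counts of both genes added, an alternative chosen after the data were seen, Nppa stood at 3288 ± 1395 CPM in CKO and 7146 ± 694 CPM in Ctrl (log2 fold change -1.12, SE 0.32, adjusted p = 0.102 in edgeR's quasi-likelihood test). The level of Nppa depends on how these reads are shared out, while the fold change was -1.13 for Nppa alone and -1.12 for both genes together. Genes that overlap the other members had at most 2.59% of the member's mean CPM.

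**Figure D2:**
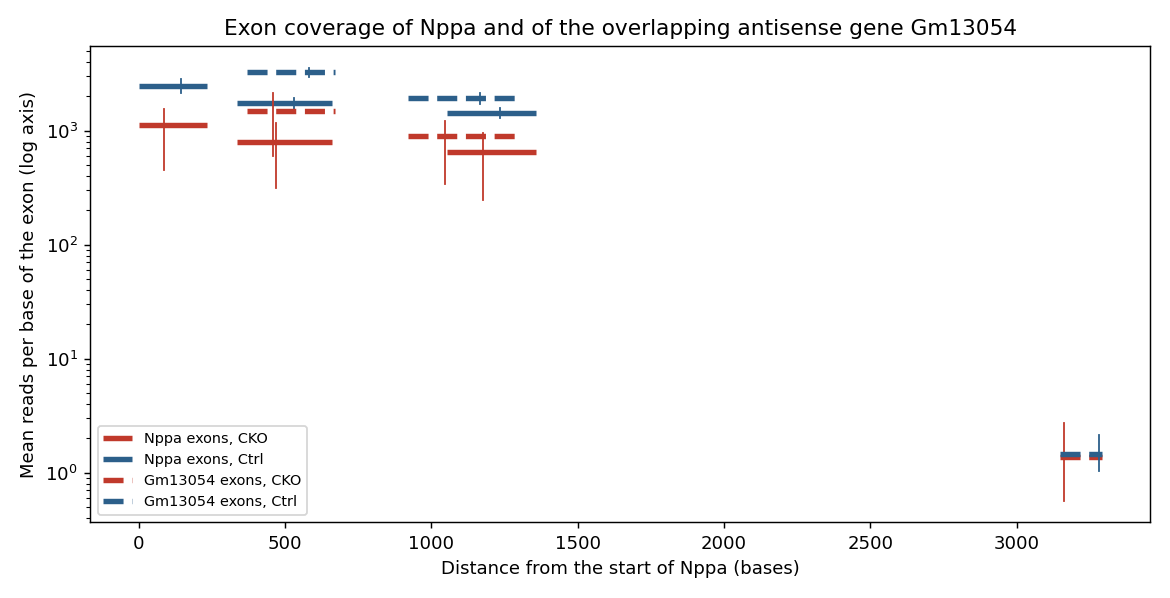
Mean reads per base (log axis) of each exon of Nppa (solid) and of the antisense gene Gm13054 (dashed), against distance from the start of Nppa in bases, as means of 6 CKO and 4 Ctrl libraries with vertical lines from the lowest to the highest library. The 2 Gm13054 exons that lie over Nppa exons have 900.0 to 3251 reads per base, and the exon outside Nppa has 1.36 in CKO and 1.47 in Ctrl.

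Since Nppa and Nppb are neighbours whose means differed in opposite directions, their ratio was taken within each library on TPM. In CKO 1 to 6 Nppb stood at 0.138, 0.247, 0.152, 0.207, 0.712 and 0.253 times Nppa, against 0.0322, 0.0198, 0.0239 and 0.0256 times in Ctrl 1 to 4. Every CKO ratio was above every Ctrl ratio, and CKO 5 stood apart at the top. The log2 ratio was -2.06 ± 0.85 in CKO and -5.32 ± 0.29 in Ctrl, a difference of 3.26. Since each CKO library was both higher in Nppb and lower in Nppa than each Ctrl library, the ratios had to separate, and they are given as a description with no test. Nppa was still the more abundant of the pair in all 6 CKO libraries. With the counts of Gm13054 added to Nppa, on CPM, the log2 difference was 3.25. The ratio of the clearance receptor Npr3 to the signalling receptor Npr1 was taken in the same way. Its log2 value was -0.02 ± 0.34 in CKO and 0.17 ± 0.46 in Ctrl, a difference of -0.20 that did not pass (exact two-sided permutation test over 210 relabellings, p = 0.452).

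**Figure D3:**
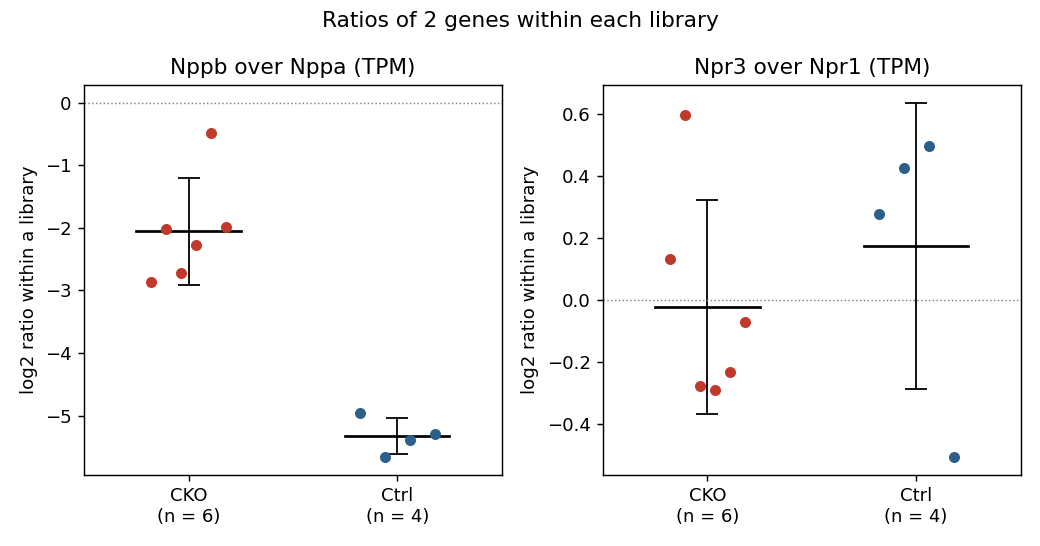
Log2 of the TPM ratio of Nppb to Nppa (left) and of Npr3 to Npr1 (right) within each of 6 CKO and 4 Ctrl libraries, with group mean and SD, where 0 (dotted) marks equal TPM. The ratio of Nppb to Nppa is -2.86 to -0.49 in CKO and -5.66 to -4.96 in Ctrl, while the receptor ratios of the groups overlap.

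The stretches upstream of both genes are shown because Tbx5 binds T-box motifs and the pair moved apart. They come from the RefSeq promoter table on GRCm38.p6, which held a window for each of the 8 genes (2 for Pam), and are cut to the bases before the Ensembl start, 5′ to 3′ on the plus strand. Capitals mark matches, on either strand, of 3 motifs. The first is a T-box core with the letters AGGTGT. The second is a GATA motif with the letters TGATAA, for which a first letter A in place of T was also allowed. The last is the core bound by NK homeobox factors, with the letters AAGTG.
Nppa: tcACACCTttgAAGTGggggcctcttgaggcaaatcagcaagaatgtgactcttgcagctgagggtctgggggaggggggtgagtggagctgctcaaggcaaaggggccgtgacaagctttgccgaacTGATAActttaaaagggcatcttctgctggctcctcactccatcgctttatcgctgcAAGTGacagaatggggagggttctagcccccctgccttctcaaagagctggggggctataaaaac
Nppb: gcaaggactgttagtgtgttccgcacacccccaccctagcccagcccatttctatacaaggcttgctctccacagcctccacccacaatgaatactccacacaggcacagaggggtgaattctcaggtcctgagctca
The Nppa stretch is 250 bases (chr4:148000472-148000721). It held 1 T-box match starting at base -248 from the gene start, 1 GATA match at -122 and 2 NK matches at -239 and -65. The Nppb stretch is 138 bases (chr4:147985650-147985787), since the RefSeq start lies 112 bases inside the Ensembl gene, and held none of the 3 motifs. The 112 bases between the Ensembl start and the RefSeq start of Nppb were not searched. Among 32851 promoter windows of the table, 11.8%, 16.6% and 40.7% held a T-box, GATA and NK match in 250 bases, and 7.14%, 10.5% and 25.3% in 138 bases. The matches did not overlap each other. A match describes letters, not binding, and a window without one says nothing about the factor.

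Within 100 kb of the pair the count table has 14 genes, of which 9 were tested, and Nppb was the 1 of the 9 that was called. Among the other neighbours on the Nppb side, the mitochondrial fusion gene Mfn2 was at 617 ± 141 CPM in CKO and 526 ± 134 CPM in Ctrl (log2 fold change 0.23, edgeR's quasi-likelihood adjusted p = 0.600), and the collagen lysyl hydroxylase gene Plod1 at 118 ± 17 CPM in CKO and 93.9 ± 16.7 CPM in Ctrl (0.34, adjusted p = 0.264). The uncharacterised 2510039O18Rik was at 23.6 ± 1.03 CPM in CKO and 21.1 ± 0.794 CPM in Ctrl (0.17, adjusted p = 0.345). On the Nppa side, the chloride-proton exchanger gene Clcn6 was at 16.1 ± 4.45 CPM in CKO and 22.2 ± 8.93 CPM in Ctrl (-0.46, adjusted p = 0.435). The angiotensin receptor-associated Agtrap was at 49.9 ± 4.25 CPM in CKO and 44.3 ± 4.97 CPM in Ctrl (0.17, adjusted p = 0.407). Values of these 5 genes overlapped between the groups.

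Nppc, the precursor of CNP (ENSMUSG00000026241, chr1:86666291-86670571, minus strand), was barely detected. It had 13 counts in CKO 1 (1.45 CPM) and 11 in Ctrl 2 (1.20 CPM) and 0 in each of the other 8 libraries. A count of 0 allows a level of up to 0.301 to 0.338 CPM (3 counts) in these libraries, by counting error alone. No fold change was computed for it.

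Pam encodes peptidylglycine alpha-amidating monooxygenase (ENSMUSG00000026335, chr1:97795114-98095646, minus strand). Its levels were 2714, 3566, 2998, 2359, 2170.1 and 3290.5 CPM in CKO 1 to 6, against 6695, 6552, 4639 and 5611 CPM in Ctrl 1 to 4. The highest CKO library, CKO 2, lay below the lowest Ctrl library, Ctrl 3, which had airway transcripts and the lowest sum of heart muscle markers. Pam averaged 2850 ± 539 CPM in CKO and 5874 ± 954 CPM in Ctrl, a log2 fold change of -1.04 with an SE of 0.17 (edgeR's quasi-likelihood test, adjusted p = 0.00799). Leaving out any 1 library left the log2 fold change between -1.13 and -0.97 and the adjusted p at 0.0370 or below. Among the libraries with high Xist, Pam averaged 3093 CPM in CKO and 6623 CPM in Ctrl, and among those with low Xist 2607 CPM in CKO and 5125 CPM in Ctrl.

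Corin, the protease that cuts the ANP precursor (ENSMUSG00000005220, chr5:72300025-72504473, minus strand), was at 282 to 558 CPM in CKO (median 416) and 359 to 538 CPM in Ctrl (median 505). It averaged 418 ± 99.9 CPM in CKO and 477 ± 80.9 CPM in Ctrl, a log2 fold change of -0.19 with an SE of 0.19 (edgeR's quasi-likelihood test, adjusted p = 0.644). The groups overlapped, with the lowest levels in CKO 5 and CKO 4 and, among controls, in Ctrl 3. Of the enzymes named, Pam thus passed the threshold and Corin did not.

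Npr1, the receptor of ANP and BNP (ENSMUSG00000027931, chr3:90450591-90465866, minus strand), was at 51.1 to 75.5 CPM in CKO and 50.2 to 83.2 CPM in Ctrl. It averaged 59.0 ± 9.05 CPM in CKO and 63.9 ± 13.9 CPM in Ctrl (log2 fold change -0.11, SE 0.15, adjusted p = 0.736 in edgeR's quasi-likelihood test), and the sign turned without Ctrl 3 (0.05, adjusted p = 0.866). Npr2, the receptor of CNP (ENSMUSG00000028469, chr4:43631935-43651244, plus strand), averaged 43.9 ± 10.8 CPM in CKO and 52.6 ± 6.54 CPM in Ctrl (-0.26, SE 0.17, adjusted p = 0.456). Npr3, the clearance receptor (ENSMUSG00000022206, chr15:11839896-11907287, minus strand), was at 124, 151, 154, 100.1, 133 and 125 CPM in CKO 1 to 6, against 203, 169, 225 and 111 CPM in Ctrl 1 to 4. Ctrl 4 lay inside the CKO range, and the other 3 controls lay above it. Npr3 averaged 131 ± 19.97 CPM in CKO and 177 ± 49.8 CPM in Ctrl, a log2 fold change of -0.43 with an SE of 0.19 that missed the threshold (edgeR's quasi-likelihood test, adjusted p = 0.266, unadjusted p = 0.0392). Markers of endothelium and endocardium, cells in which receptors of this family are known to be made, summed to 1099.8 to 1253 CPM in CKO and 821 to 1070.3 CPM in Ctrl, without overlap. Of the 8 markers 0 were called by edgeR's quasi-likelihood test or limma-voom and 1, higher, by DESeq2, with 3 at an unadjusted p under 0.05, as were 3018 of all 17752 tested genes. Their part in the receptor levels was not tested.

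Per transcript length, Nppa, Nppb, Pam and Corin exceeded the receptors in both groups, and Nppc lay below them. In CKO, mean TPM ran in the order Nppa (3445), Pam (2163), Nppb (786), Corin (200), Npr1 (42.8), Npr3 (41.6), Npr2 (32.0) and Nppc (0.386). In Ctrl it ran in the order Nppa (8181), Pam (4847), Corin (232), Nppb (210), Npr3 (61.8), Npr1 (53.9), Npr2 (45.2) and Nppc (0.595). Among all genes of the table Nppa ranked 19 by mean TPM in CKO and 9 in Ctrl, Pam 35 in CKO and 17 in Ctrl, and Nppb 139 in CKO and 589 in Ctrl. In CKO the ranges of Nppa and Pam overlapped, with Nppa above Pam in 5 of 6 libraries, whereas in Ctrl Nppa was above Pam without overlap. The exception was CKO 5, with Nppa at 1100 TPM, Pam at 1316 TPM and a further 1272 TPM assigned to Gm13054. The order and ranks of Nppa thus depend on how reads are shared out with Gm13054. Nppb lay above Corin without overlap in CKO, while in Ctrl the ranges of Corin and Nppb overlapped and Corin was the higher in 2 of 4 libraries. The ranges of the 3 receptors overlapped each other in order in both groups.

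**Figure D4:**
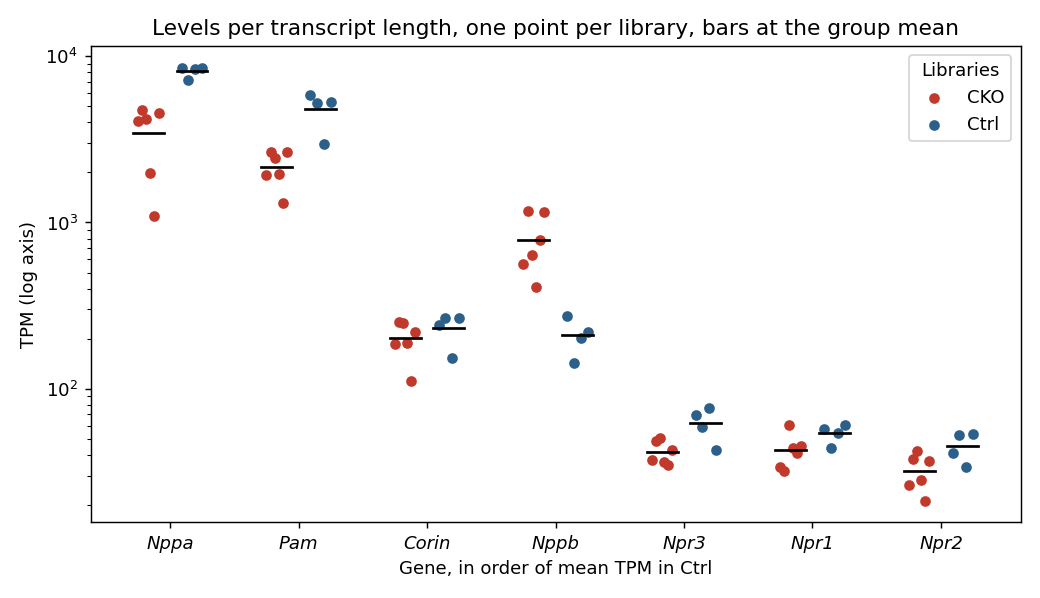
TPM (log axis) of 7 of the genes in 6 CKO (left of each pair) and 4 Ctrl libraries, 1 point per library with a bar at the group mean, in order of the Ctrl mean. Nppc, at 0 in 8 of the 10 libraries, is left out, and Nppb lies above Corin without overlap at 786 TPM in CKO and overlaps it at 210 TPM in Ctrl.

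Nppa, Nppb and Nppc have 1 annotated transcript each, and the other 5 genes have 5 to 15. Transcripts were compared if they held on average at least 10% of a gene's TPM over the 10 libraries. Only genes with more than 1 such transcript were used, which gave 14 transcripts. Their shares were compared by exact permutation over the 210 relabellings, and 0 passed after adjustment. A single transcript cannot get below an adjusted p of 0.0667 in this design. The lowest unadjusted p was that of the short Corin transcript ENSMUST00000176320, of 675 bases and 4 exons, with 19.4% ± 6.66 of Corin TPM in CKO and 10.2% ± 4.06 in Ctrl (exact permutation p = 0.0476, adjusted p = 0.356). The full-length Corin transcript ENSMUST00000005352 (22 exons) held 74.8% ± 5.89 in CKO and 82.4% ± 5.25 in Ctrl (exact permutation p = 0.0762). For Pam, the 3 transcripts compared were ENSMUST00000161567 with 35.7% ± 12.1 in CKO and 31.9% ± 9.88 in Ctrl, ENSMUST00000162803, of 6 exons, with 31.4% ± 12.4 in CKO and 17.03% ± 14.1 in Ctrl, and ENSMUST00000097625 with 10.9% ± 5.32 in CKO and 16.9% ± 6.94 in Ctrl. The spread between libraries of a group was as wide as these differences.

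Lists of genes that work with these peptides, written from general knowledge with earlier results known, were read against the same fit. In that fit, 3018 of all 17752 tested genes had an unadjusted p under 0.05, and 1.54% were called higher and 1.26% lower. Of 12 genes of hormone processing and secretory granules, such as prohormone convertases and granins, 9 were tested and 0 were called by edgeR's quasi-likelihood test, with 0 at an unadjusted p under 0.05, and 0 by DESeq2 or limma-voom. Their median log2 fold change was -0.31, beside -0.03 over all tested genes, with 3 positive (Cpe, Pcsk6 and Pcsk5) and 6 negative. The lowest values were those of Scg5, Pcsk2 and Chgb, at mean levels of only 1.29, 1.11 and 1.68 CPM. The carboxypeptidase gene Cpe was at 335 ± 38.1 CPM in CKO and 326 ± 47.9 CPM in Ctrl (log2 fold change 0.04, adjusted p = 0.898), and the convertase gene Pcsk6 at 123 ± 18.8 CPM in CKO and 120 ± 24.7 CPM in Ctrl (0.04, adjusted p = 0.912), with the sign of both turning when libraries were scaled by their size only. Of 3 peptide-degrading enzymes, 0 were called by edgeR's quasi-likelihood test, DESeq2 or limma-voom, 2 had an unadjusted p under 0.05 (Mme and Ide), and the median was 0.14. The insulin-degrading enzyme Ide was at 133 ± 8.17 CPM in CKO and 117 ± 5.18 CPM in Ctrl (0.19, adjusted p = 0.245), and Dpp4 at 45.8 ± 18.9 CPM in CKO and 41.7 ± 14.5 CPM in Ctrl (0.14, adjusted p = 0.855). Neprilysin, Mme, the best known natriuretic peptide protease and singled out with its values in view, stood at 18.1 ± 10.7 CPM in CKO and 46.1 ± 22.4 CPM in Ctrl (-1.35, SE 0.46, adjusted p = 0.161).

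Of 21 genes of cyclic GMP signalling, 19 were tested, and 0 were called higher and 2 lower, beside 1.54% and 1.26% of all tested genes. The list median was -0.15, and 5 of the 19 had an unadjusted p under 0.05 in edgeR's quasi-likelihood test. DESeq2 and limma-voom also called 0 higher and 2 lower. The list includes subunits of the nitric oxide-sensitive guanylyl cyclase, which is not downstream of the natriuretic peptide receptors. Gucy1a1, an alpha subunit of the nitric oxide-sensitive guanylyl cyclase, fell to 91.2 ± 15.6 CPM in CKO, against 169 ± 33.7 CPM in Ctrl (log2 fold change -0.89, SE 0.16, adjusted p = 0.0155 in edgeR's quasi-likelihood test). The other alpha subunit gene Gucy1a2 (-0.11, adjusted p = 0.804) and the beta subunit gene Gucy1b1 (0.07, adjusted p = 0.721) were not called in that test. Rgs2, a brake on G protein signalling that the cyclic GMP-dependent kinase activates, fell to 45.0 ± 13.6 CPM in CKO, against 96.9 ± 14.5 CPM in Ctrl (-1.11, SE 0.20, adjusted p = 0.0155). The CPM of Gucy1a1 and that of Rgs2 did not overlap between the groups. The Gucy1a1 call was lost without Ctrl 2, without Ctrl 4 and without both Ctrl 3 and CKO 4, and the Rgs2 call without Ctrl 1 and without Ctrl 4 (adjusted p up to 0.0663 and 0.0589). Of 8 related ligands and membrane guanylyl cyclases, 1 was tested. This was Gucy2e, a cyclase known from the retina, at 0 to 0.565 CPM in CKO and 1.67 to 2.55 CPM in Ctrl (adjusted p = 0.0240 in edgeR's quasi-likelihood test, lost with no filter at 0.0727 and, among single libraries left out, without Ctrl 1, Ctrl 2 or Ctrl 4, up to 0.0797), a level so low that no fold is given.

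Among 18 transcription regulators known to act on Nppa or Nppb or on their chamber pattern, all were tested. Of these 2 were called higher and 1 lower, beside 1.54% and 1.26% of all tested genes, with a median of 0.07. An unadjusted p under 0.05 in edgeR's quasi-likelihood test was seen for 6. DESeq2 called 3 higher and 1 lower, and limma-voom 2 higher and 0 lower. The list includes Tbx5, the gene deleted by design. Tbx5 is among the 6 (unadjusted p = 0.00495 in edgeR's quasi-likelihood test) and among the 3 that DESeq2 called higher (adjusted p = 0.00863). Ankrd1, a stretch-induced cofactor, stood at 4460 ± 1264 CPM in CKO and 1775 ± 594 CPM in Ctrl (log2 fold change 1.33, SE 0.28, adjusted p = 0.0284 in edgeR's quasi-likelihood test), and Hand2 at 25.5 ± 7.33 CPM in CKO and 11.1 ± 2.09 CPM in Ctrl (1.20, SE 0.23, adjusted p = 0.0210). Both were higher in every CKO library than in any Ctrl library. Tbx3, a T-box repressor of working-muscle genes, was at 6.67 ± 2.33 CPM in CKO and 15.4 ± 4.92 CPM in Ctrl (-1.21, SE 0.29, adjusted p = 0.0493), with overlapping groups. When any 1 library was left out, the Hand2 call was lost for 2 controls, Ctrl 1 and Ctrl 4 (largest adjusted p 0.0811), the Ankrd1 call without CKO 1, CKO 2, CKO 6, Ctrl 2 or Ctrl 4 (up to 0.0919), and the Tbx3 call in all cases except without CKO 3 and without Ctrl 3 (up to 0.155). The Tbx3 call was also lost with RLE size factors (adjusted p = 0.0502), limma-voom (0.0534), no filter (0.0836) and the filter of 1 CPM in 4 libraries (0.05003).

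Other cell types differed in part between the groups. For comparison, 3018 of all 17752 tested genes had an unadjusted p under 0.05 in edgeR's quasi-likelihood test, which called 274 higher and 223 lower. Over all genes, limma-voom called 237 higher and 226 lower, and DESeq2 681 higher and 410 lower. Macrophage markers summed to 679 to 1245 CPM in CKO and 389 to 715 CPM in Ctrl, with overlap, and 1 of 5 was called higher by edgeR's quasi-likelihood test, 2 by limma-voom and 4 by DESeq2, with 5 at an unadjusted p under 0.05. Fibroblast markers summed to 3852 to 6164 CPM in CKO and 2430.5 to 4126 CPM in Ctrl, with overlap, and 0 of 6 were called by edgeR's quasi-likelihood test, with 3 at an unadjusted p under 0.05, and 2, higher, by DESeq2. Markers of nerve and Schwann cells summed to 14.2 to 31.4 CPM in CKO and 35.9 to 75.0 CPM in Ctrl, without overlap, with 1 of 4 tested called lower. Ventricular muscle markers summed to 11.7 to 112 CPM in CKO and 4.65 to 15.7 CPM in Ctrl, with 0 of 2 tested called by edgeR's quasi-likelihood test or DESeq2 and 1 at an unadjusted p under 0.05. Smooth muscle markers (593 to 1244 CPM in CKO and 523 to 1203 CPM in Ctrl) and epicardial markers (167 to 531 CPM in CKO and 162 to 461 CPM in Ctrl) overlapped between the groups, and so did those of fat cells (121 to 927 CPM in CKO and 438 to 1062 CPM in Ctrl, with 1 of 4 at an unadjusted p under 0.05 and 0 called by edgeR's quasi-likelihood test or DESeq2). Of the 6 heart muscle markers, 1 was called higher by edgeR's quasi-likelihood test and 2 by DESeq2. In no list was a marker at 0 in all libraries, and the part of these cell types in the results for Nppb, Pam and Nppa was not tested.

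The study also set this tissue beside the left atrial appendage, whose libraries were not analysed here and are known only from the authors' deposited table of fold changes. That table holds 13646 genes, among them 7 of the 8 (Nppc is not listed). It states neither its direction, which was read from its column names, nor the genotype in which the regions were compared. Its false discovery rate was under 0.05 for 5.5% of its genes for CKO in the vein region (3.03% higher and 2.47% lower), and of the 7 for 1 higher and 2 lower. For CKO in the appendage these shares were 34.7% of all its genes (16.8% higher and 17.9% lower), and of the 7 it called 1 higher and 4 lower. For the vein region against the appendage they were 12.2% (8.19% higher and 4.06% lower), and of the 7 it called 0 higher and 4 lower, all in the authors' deposited table. For Nppb the authors' deposited table gives log2 fold changes of 2.04 in the vein region (false discovery rate 8.73e-09) and 1.28 in the appendage (2.17e-06) for CKO over Ctrl. For Nppa the authors' deposited table gives -1.15 in the vein region (0.0483) and -1.04 in the appendage (3.28e-05). For Pam the authors' deposited table gives -1.06 in the vein region (0.0396) and -1.07 in the appendage (7.02e-40). The direction was thus the same in both regions for these 3 genes, and no difference between the regions was tested. In the authors' deposited table Nppa passes 0.05 in the vein region, while it missed the threshold in the fit above at nearly the same fold change.

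Between the regions, the authors' deposited table gives negative log2 fold changes of the vein region over the appendage for Nppb (-2.81, false discovery rate 1.73e-28), Nppa (-2.13, 1.3e-17), Npr3 (-1.62, 1.16e-09) and Pam (-0.93, 0.00120). The smooth muscle gene Myh11 and the airway gene Scgb1a1 are positive in the same column of the authors' deposited table (4.58 and 13.82). Levels of Myh11 and Scgb1a1 in the appendage were not measured here, so the sign of that column still rests on its name. Npr1 (0.22, 0.562), Npr2 (-0.23, 0.479) and Corin (-0.30, 0.436) do not pass 0.05 there in the authors' deposited table. In the appendage comparison of CKO with Ctrl, the authors' deposited table has Npr3 at -0.55 (0.00737) and Corin at -0.45 (0.0270), both past 0.05, and in the vein region at -0.45 (0.242) and -0.21 (0.796), neither past it. Mme is lower in CKO in both regions of the authors' deposited table, by -1.37 in the vein region (0.0119) and -1.88 in the appendage (3.8e-05). Libraries that enter the region comparison enter the CKO comparisons too, so that likeness between them is not independent. The appendage libraries came from an earlier study, per the series' design text, so that region and study cannot be told apart.

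**Figure D5:**
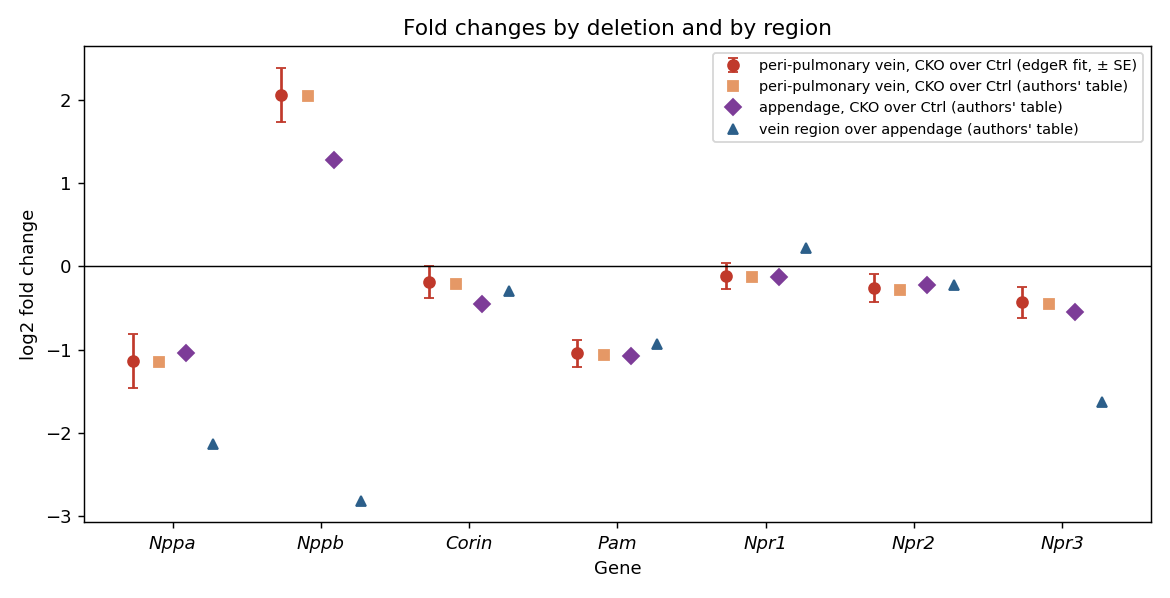
Log2 fold changes of 7 genes: CKO over Ctrl in the vein region by edgeR (circles, ± SE), and the authors' deposited values for CKO over Ctrl in the vein region (squares), CKO over Ctrl in the appendage (diamonds) and vein region over appendage (triangles). Nppb is at 2.06 and 2.04 for CKO in the vein region and 1.28 in the appendage but at -2.81 between regions, while Nppa and Pam are negative in every comparison.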

How the data were processed

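RNA from 6 CKO and 4 Ctrl animals was sequenced after removal of ribosomal RNA, per the labels' protocols, although the labels name polyA RNA as the molecule. The submitters' processing notes name TopHat2 2.1.1, StringTie 1.3.3, edgeR 3.18.1, limma 3.32.10 and mm10, and StringTie used the Ensembl 94 annotation of GRCm38, per the file headers. Duplicated reads were removed, per the series' design text, which can lower the most abundant genes. The gene table deposited by the authors holds estimated counts, whole numbers that in all 10 libraries follow from transcript coverage, transcript length and reads of 50 bases. The deposited transcript files give TPM and coverage in reads per base. The authors also deposited log2 fold changes with a p-value and false discovery rate per gene, with a filter that is not stated. A further 10 columns of the gene table, of appendage libraries, were not used here.

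The filter filterByExpr left 17752 of the 33196 genes with a count. These were tested by TMM scaling and the quasi-likelihood test of edgeR 4.0.16 in R 4.3.3, with genotype as the only term. An SE is the log2 fold change divided by the root of its F statistic. No pair of replicates agreed within counting error (lowest chi-square over its degrees of freedom 10.1). The tests were tried on simulated data. The alternatives were DESeq2 1.42.0, limma-voom (limma 3.58.1), other scalings and filters, Xist as a covariate, replicate number as a block, and libraries left out. The 8 genes and the lists were chosen with earlier results of these data known. Named besides the 8 were Tbx5, up to 4 called genes of each list (or the 2 with the highest mean CPM), tested genes within 100 kb of Nppa or Nppb, and the 4 genes most correlated with each, leaving out model and clone names. Gm13054, Mme, Myh11 and Scgb1a1 were named after their values were seen. Of the genes and sequences this rule covers, 1 neighbouring gene and 1 coding stretch are not reported here.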

Additional observations from a re-analysis of the deposited data

Results flagged for a closer look

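Among 68 groups of values checked, 6 had a library far from the others of its group, where chance gives about 1 group in 20. Nppc was detected in 1 library of each group, CKO 1 at 1.45 CPM and Ctrl 2 at 1.20 CPM, with the others at 0. The log2 ratio of Nppb to Nppa was -0.49 in CKO 5, with the nearest CKO library at -1.98. The share of Npr2 TPM in the transcript ENSMUST00000123883 was 32.1% in Ctrl 2, with the nearest Ctrl library at 5.34%. The share of Pam TPM in ENSMUST00000162803 was 6.75% in CKO 3, with the nearest CKO library at 32.8%, and 37.9% in Ctrl 4, with the nearest Ctrl library at 11.7%.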

How the results depend on the processing

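Nppb and Pam kept their direction and stayed past the threshold in 18 of 19 alternatives, with log2 fold changes of 1.74 to 2.26 and -1.13 to -0.97. The exception was the fit with replicate number as a block (Nppb 1.74, adjusted p = 0.16, and Pam -1.02, adjusted p = 0.105), in which 0 of the 8 genes and 37 of all genes were called. Deviations of same-numbered libraries correlated at 0.0463, 0.116, -0.381 and 0.0971. Such values cannot show whether the numbers pair animals, and the labels do not say that they do. DESeq2 called 1091 genes and Nppa among them (-1.11, adjusted p = 0.0133). With 1 library left out, 190 to 607 of all genes (497 in the full set) and 2 of the 8 were called, Nppa ranged from -1.24 to -0.97 (adjusted p 0.0756 to 0.214), Npr1 from -0.21 to 0.049 (without Ctrl 3), and the log2 difference in the ratio of Nppb to Nppa from 2.95 to 3.43. Npr1 also turned positive without both Ctrl 3 and CKO 4 (0.042, adjusted p = 0.896). Of all called genes 55.1% were higher in CKO (274 against 223), and 44.1% (227 against 288) when libraries were scaled by size only. Of the other named genes, put through the same alternatives after the data were seen, Cpe turned negative when scaled by size only (-0.029) and without CKO 3 (-0.0049) or Ctrl 4 (-0.018), Pcsk6 when scaled by size only (-0.026) and without CKO 2 (-0.0013), Ctrl 1 (-0.032) or Ctrl 4 (-0.028, against up to 0.19 without Ctrl 3), and Dpp4 under the block (-0.11) and without CKO 5 (-0.080) or Ctrl 4 (-0.011, against up to 0.41 without Ctrl 3), and the cause was not tested. Under the block the calls of Gucy1a1 (adjusted p = 0.0607), Gucy2e (0.114), Hand2 (0.164), Ankrd1 (0.233) and Tbx3 (0.352) were lost as well. Nppc, at 0 counts in 8 of 10 libraries, could not be compared at this depth.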

Other observations

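Genes with a mean CPM of at least 10 were ranked by correlation with Nppa and with Nppb (9858 genes ranked). Names that are only model or clone numbers were left out, among them Gm13054, which shares its reads with Nppa. After subtraction of each group's mean, the remaining genes whose log2 CPM followed Nppa most closely over the 10 libraries were Lamtor3 (Pearson r 0.93), Mrpl17 (0.93), G6pc3 (0.92) and Xaf1 (0.92). Those that followed Nppb most closely were Bloc1s5 (0.95), Phf3 (0.90), Tmem251 (0.89) and Cdk5rap1 (0.88). These values are the highest of many, the libraries share their preparation and depth, and they are given as a description only. Xaf1 was itself higher in CKO, at 31.4 CPM, against 10.7 CPM in Ctrl (log2 fold change 1.55, adjusted p = 0.0353 in edgeR's quasi-likelihood test), while every CKO library was below every Ctrl library in Nppa.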
